A study of Mus musculus with 8 samples.

Results

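Kidney and small intestine are transporting epithelia that carry a brush border, a dense carpet of microvilli on the surface that faces the filtrate or the food. Their transcripts were compared in 4 bulk RNA-seq libraries, 2 of kidney and 2 of small intestine, taken from a series of 8 libraries that also holds lung and liver. The libraries were made from polyadenylated RNA of whole organ pieces of male mice, given as C57BL/6 in the labels and C57BL/6J in the study's methods, an inbred strain, aged 6 to 10 weeks, with no treatment given in the labels, and the segment of small intestine is not given in the sources used here. The study describes the pair of libraries of each tissue as biological replicates, and each mouse gave several tissues. Of the 52195 genes in the table, 13039 reached a scaled FPKM of 1 or more in at least 2 of the 4 libraries and were tested. FPKM is a fragment count scaled for transcript length and library depth, so levels of different genes can be set side by side. Scaled FPKM is the deposited FPKM divided by a median-of-ratios factor for each of the 4 libraries. All levels below are scaled FPKM, given for replicate 1 and then replicate 2, and all differences are kidney minus small intestine on the log2(scaled FPKM + 1) scale, which understates the difference of genes with low values.

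In the kidney, proximal tubule cells recover glucose, amino acids, phosphate and bicarbonate from the filtrate, and later segments set the final content of salt, water, acid and calcium. In the small intestine, enterocytes split sugars and peptides with enzymes anchored in the microvillar membrane and take up the products, while crypt cells secrete chloride and fluid. Both tissues draw on the same solute carrier families, ATPases, channels, peptidases and claudins, often through different family members. To describe which member each tissue used, 384 genes were placed in 17 lists and 87 families. Of these genes, 326 passed the filter on low values, 143 were called higher in kidney, 108 were called higher in small intestine and 75 were not called. The lists were chosen with earlier results of these data known, so their counts describe the listed genes only. A call was an adjusted p under 0.05 by limma with Benjamini-Hochberg adjustment and an absolute log2 difference over 1. Among all genes tested, 17.1% were called higher in kidney and 18% higher in small intestine, 35.1% in either direction. In 37.1% both kidney libraries lay above both small intestine libraries, and in 37.2% below them.

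**Figure D1:**
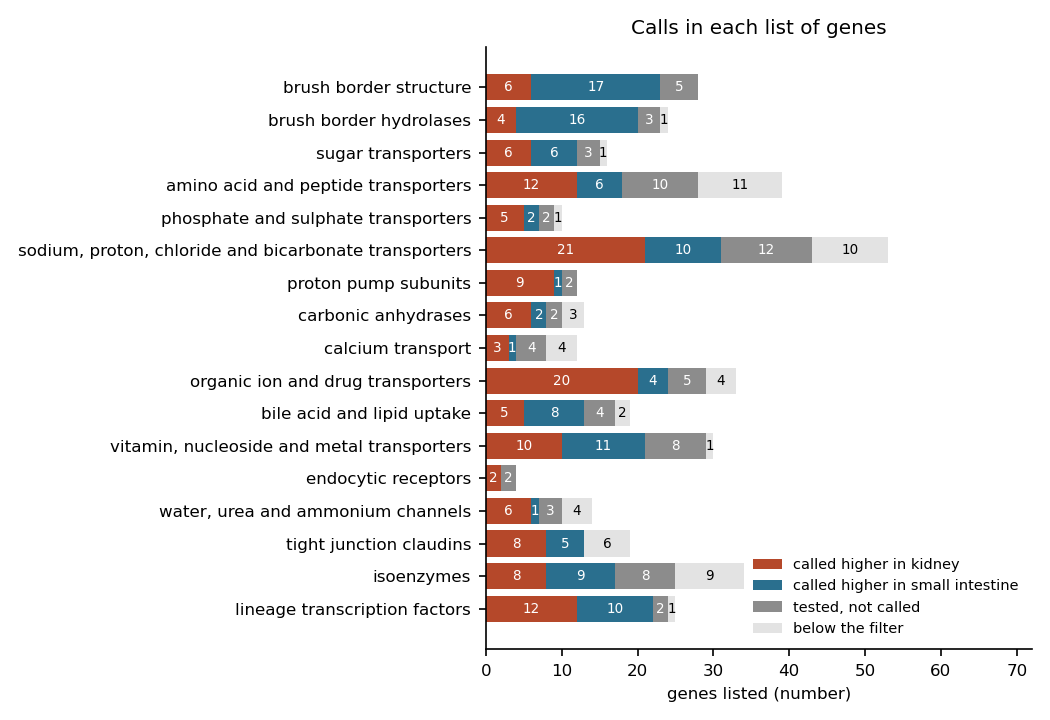
Number of genes in each of the 17 lists that were called higher in kidney, called higher in small intestine, tested and not called, or below the filter on low values. Organic ion and drug transporters hold 20 kidney calls against 4, and brush border hydrolases hold 16 small intestine calls against 4.

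In 40 of 79 families with a summed level of at least 1 in both tissues, the member with the highest mean level differed between the tissues. In 31 families a single member led in both kidney libraries and another in both small intestine libraries, and in 32 families 1 member led in all 4. The 5 promoters below belong to a kidney carrier (Slc34a1), the intestinal glucose carrier (Slc5a1) and 3 intestinal genes (Alpi, Sis and Fabp2) that carry the contrast between the tissues. Each runs 5′ to 3′ from 250 bases before the transcription start to 50 after it, from RefSeq on build GRCm38.p6. Capitals mark 2 short motifs searched on both strands: TTTATNG, a CDX-type motif, and AAAGTCC, an HNF4-type motif. CDX factors are homeobox proteins known from gut epithelium, and HNF4 factors are nuclear receptors known from gut and kidney epithelia.
Slc34a1, chr13:55399398-55399697, plus strand: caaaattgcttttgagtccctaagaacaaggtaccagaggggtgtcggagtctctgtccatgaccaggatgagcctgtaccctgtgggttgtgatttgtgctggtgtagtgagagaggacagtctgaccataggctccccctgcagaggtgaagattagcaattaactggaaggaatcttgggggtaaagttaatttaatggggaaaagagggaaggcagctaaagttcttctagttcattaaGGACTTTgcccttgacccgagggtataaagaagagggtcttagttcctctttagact
Slc5a1, chr5:33103969-33104268, plus strand: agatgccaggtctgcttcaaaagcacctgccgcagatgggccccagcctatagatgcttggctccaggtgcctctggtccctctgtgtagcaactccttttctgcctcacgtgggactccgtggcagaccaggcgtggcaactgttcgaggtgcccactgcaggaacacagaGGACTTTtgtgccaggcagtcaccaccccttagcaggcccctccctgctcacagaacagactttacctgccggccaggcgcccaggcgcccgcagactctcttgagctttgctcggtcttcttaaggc
Alpi, chr1:87101557-87101856, minus strand: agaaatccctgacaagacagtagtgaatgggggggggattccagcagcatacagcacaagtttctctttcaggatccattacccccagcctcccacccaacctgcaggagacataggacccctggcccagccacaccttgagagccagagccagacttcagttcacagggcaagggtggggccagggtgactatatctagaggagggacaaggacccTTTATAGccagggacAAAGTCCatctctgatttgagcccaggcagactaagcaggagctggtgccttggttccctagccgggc
Sis, chr3:72967814-72968113, minus strand: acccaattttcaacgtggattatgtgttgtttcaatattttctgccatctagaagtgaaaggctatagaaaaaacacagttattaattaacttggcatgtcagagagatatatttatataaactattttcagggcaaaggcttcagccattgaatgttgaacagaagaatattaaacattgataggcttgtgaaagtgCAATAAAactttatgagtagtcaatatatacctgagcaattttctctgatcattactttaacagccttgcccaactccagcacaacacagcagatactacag
Fabp2, chr3:122894822-122895121, plus strand: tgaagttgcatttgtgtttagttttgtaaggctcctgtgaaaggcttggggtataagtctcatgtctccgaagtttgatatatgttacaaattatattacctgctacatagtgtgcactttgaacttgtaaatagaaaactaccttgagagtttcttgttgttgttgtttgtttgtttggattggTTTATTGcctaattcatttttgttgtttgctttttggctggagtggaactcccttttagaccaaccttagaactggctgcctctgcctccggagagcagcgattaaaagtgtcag
The Slc34a1 window held an HNF4-type motif 7 bases before the start. In the Slc5a1 window the HNF4-type motif lay 78 bases before the start. The Alpi window held a CDX-type motif at 33 and an HNF4-type motif at 18 bases before the start. The Sis window held a CDX-type motif at 52 bases before the start, and the Fabp2 window a CDX-type motif at 65. The CDX-type motif was not limited to intestinal genes, since Alpl, the phosphatase higher in kidney, held it 192 bases before the start in 1 of its promoters and held neither motif in its other one. Of 32851 promoters in the table, 10.9% held the CDX-type motif and 4.21% the HNF4-type. Because 68.8% of the genes tested had a promoter in the table, shares among the genes called are not given. The 5 promoters printed are picked examples that all hold a motif, so they do not show how common the motifs are among the genes called. No binding was measured here, and a match is a match of letters only.

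Across all genes tested, 2235 were called higher in kidney and 2344 higher in small intestine, and the median log2 difference was 0.01. This balance depended on the scaling. With the values as deposited the counts were 1720 and 3049 and the median was -0.28, and with equal summed FPKM they were 1633 and 3243 with a median of -0.34. The libraries held between 9360913 and 21444675 reads counted on genes, so that 3 reads on a gene of 1 kb correspond to a scaled FPKM between 0.132 and 0.275. The median absolute log2 difference between replicates was 0.310 in kidney and 0.186 in small intestine. With 2 libraries against 2, an exact permutation test of a single gene cannot go below p = 0.333, so all tests rest on the spread that limma shares across genes. The values cannot tell fewer cells of a type from less RNA per cell.

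The labels were checked against marker genes. Of the 7 proximal tubule markers 6 were called higher in kidney, and the lists of thick ascending limb (4 of 4), distal convoluted tubule (3 of 3 tested), principal cells (4 of 4 tested) and intercalated cells (5 of 5) were all called there. Of 4 podocyte markers tested, 3 were called higher in kidney and Synpo higher in small intestine, and the podocyte list summed to 44.8 and 23.5 in kidney and 7.55 and 8.57 in small intestine. All tested markers of enterocytes (6 of 6), goblet cells (5 of 5), Paneth cells (5 of 5) and enteroendocrine cells (6 of 6) were called higher in small intestine. The organ pieces also held other cells. The summed level of 8 markers of pancreatic acinar cells was 2501 and 1206 in small intestine and 72.7 and 103 in kidney, with Cela1 giving most of the kidney sum, at 72 and 99.6. Smooth muscle markers summed to 266 and 229 in small intestine and 20.1 and 24.5 in kidney, and plasma and B cell markers to 3527 and 1517 against 42.1 and 54.7. Erythroid markers summed to 439 and 1729 in kidney and 152 and 48.1 in small intestine. Their part in the differences below was not tested.

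**Figure D2:**
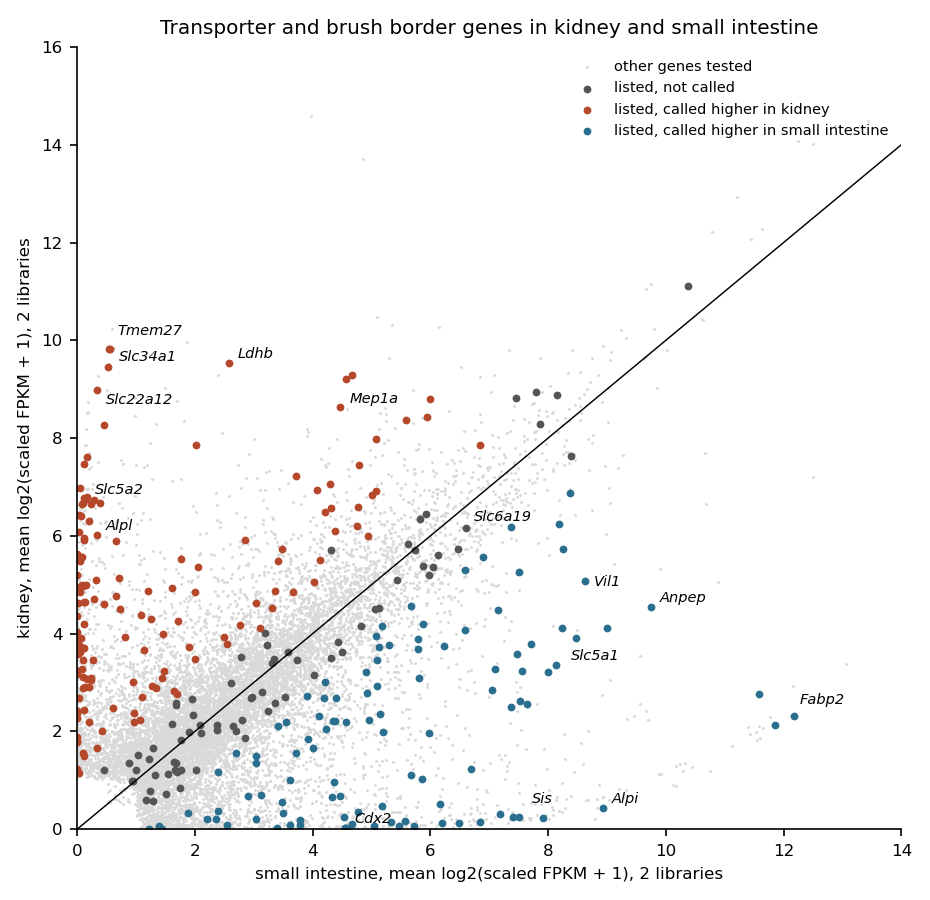
Mean log2(scaled FPKM + 1) of the 2 kidney libraries against that of the 2 small intestine libraries for the 13039 genes tested, with listed genes coloured by their call and a line of equal levels. Slc34a1 and Tmem27 lie near the kidney axis, Alpi and Sis near the small intestine axis, and Slc6a19 near the line.

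The shared structure that gives the brush border its name was built from transcripts at unequal levels. The list of brush border structure also holds genes of membrane linkage and membrane traffic. Of its 28 genes tested, 17 were called higher in small intestine, 6 higher in kidney and 5 were not called, with a median log2 difference of -1.45. Vil1, which encodes villin, the bundling protein of the microvillar actin core, was at 31.4 and 34.1 in kidney and at 327 and 471 in small intestine, a 12.2-fold higher level. The groups did not overlap, with -3.54 as the log2 difference, 0.34 as its standard error and an adjusted p of 0.000271 by limma. Pls1, another actin bundler, was at 8.45 and 8.38 against 164 and 215, and Espn, also a bundler, at 2.83 and 4.53 against 18.9 and 19.6. The widest gap of the list was that of Myo1a, the myosin that ties the actin core to the membrane, at 0.0709 and 0.313 in kidney and 155 and 211 in small intestine, a log2 difference of -7.26 (standard error 0.27). Kidney thus held villin transcripts with Myo1a below 1, whereas small intestine held both.

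The tip links between microvilli, made by the protocadherins Cdhr2 and Cdhr5 with their cytoplasmic partners, were mostly called higher in small intestine. Cdhr2 was at 5.09 and 5.24 in kidney and 172 and 195 in small intestine, a 35.5-fold higher level, while its binding partner Cdhr5 was at 45.6 and 59.4 against 267 and 342. Myo7b, the motor of the complex, was at 4.37 and 3.14 against 25.8 and 34.9. Calml4, a light chain of that motor, was not called, at 39.2 and 68.0 in kidney and 53.2 and 51.0 in small intestine. Its log2 difference of -0.01 had a 95% interval from -0.84 to 0.82, and it was the member of the complex least separated between the tissues. Calml4 held 32.4% and 41.8% of the summed level of the complex in kidney and 9.14% and 7.32% in small intestine.

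The linkers between membrane and actin divided by paralog. Rdx, which encodes radixin, was at 33.4 and 25.9 in kidney and 1.94 and 2.14 in small intestine, and Msn, moesin, at 10.8 and 9.48 against 2.99 and 3.01. Their paralog Ezr, ezrin, went the other way at 64.7 and 80.1 against 123 and 219, with a log2 difference of -1.18 and an adjusted p of 0.0451 by limma. The Ezr call was lost with any library left out, at values from -1.59 to -0.77, and at -1.18 with no filter on low values. The PDZ scaffold Pdzk1, which binds the tails of apical carriers, was at 80.9 and 97.5 in kidney and 14.2 and 21.6 in small intestine. Mal, a proteolipid of apical membrane traffic, was at 54.8 and 63.2 in kidney and 0.892 and 0.315 in small intestine, the widest kidney difference of the list at 5.25.

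The hydrolases of the brush border were the list most tilted to small intestine, with 16 of 23 tested genes called there, 4 in kidney and a median log2 difference of -2.51. Lct, lactase, was at 0.0548 and 0.157 in kidney and 109 and 118 in small intestine. Sis, sucrase-isomaltase, was at 0.0470 and 0.312 against 187 and 312. Treh, trehalase, was not restricted in this way, at 32.9 and 42.7 in kidney and 202 and 163 in small intestine. It made up 80.4% and 89.2% of the summed level of the 4 listed disaccharidases in kidney. Anpep, aminopeptidase N, was at 22.0 and 23.0 against 726 and 1017, a 38.8-fold higher level in small intestine. Enpep, which cleaves angiotensin II, and Dpp4, a dipeptidyl peptidase, were also called higher there, with log2 differences of -2.51 and -2.71.

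The alkaline phosphatases changed places. Alpl, the tissue-nonspecific form, was at 60.0 and 67.4 in kidney and 0.341 and 0.197 in small intestine, 5.67 apart on the log2 scale with a standard error of 0.22 and an adjusted p of 1.34e-05 by limma. Alpi, the intestinal form on chromosome 1 (chr1:87098002-87101606, minus strand), was at 0.0939 and 0.664 in kidney and 550 and 428 in small intestine, a difference of -8.49 (standard error 0.31). Akp3, another intestinal form next to Alpi, was at 0.0418 and 0.370 against 181 and 158. Of the summed level of these 3 alkaline phosphatases, Alpl accounted for 99.8% and 98.5% in kidney, and Alpi for 75.2% and 73.0% in small intestine.

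Peptidases showed 2 further exchanges of this kind. Meprin is a metalloprotease of α and β subunits, and its α subunit gene Mep1a (chr17:43474324-43502812, minus strand) was at 355 and 437 in kidney and 14.6 and 30.5 in small intestine, a 17.5-fold higher kidney level that moved to 27.1-fold without small intestine replicate 2. The β subunit gene Mep1b was at 63.1 and 88.7 in kidney and 259 and 323 in small intestine. Of the summed level of the 4 listed endopeptidases, Mep1a made up 83.3% and 82.3% in kidney, and Mep1b 81.8% and 81.5% in small intestine. The Mep1b call was lost without small intestine replicate 1, at -2.10, and without replicate 2, at -1.78. Folh1, glutamate carboxypeptidase II, was at 24.8 and 22.5 in kidney and at 0 and 0.0248, no more than 1 read, in small intestine. Its relative Naaladl1 was at 0.176 and 0.312 in kidney and 85.7 and 240 in small intestine. Tmprss15, enteropeptidase, which activates pancreatic trypsinogen, was at 0 and 0.0186 in kidney and 11.2 and 8.07 in small intestine.

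Sodium-coupled glucose uptake gave a clear exchange of isoforms. Slc5a2, the high-capacity glucose carrier SGLT2 (chr7:128265657-128272430, plus strand), was at 110 and 103 in kidney and 0.158 and 0.0549 in small intestine, where it had 5 and 2 reads. The tissues were 6.60 apart on the log2 scale, with a standard error of 0.22 and an adjusted p of 1.34e-05 by limma. Slc5a1, the high-affinity glucose and galactose carrier SGLT1 (chr5:33104219-33162870, plus strand), was at 14.8 and 13.3 in kidney and 268 and 472 in small intestine, a 26.3-fold higher level and a difference of -4.57 (standard error 0.36, adjusted p = 0.000134). The exchange was not symmetric, since kidney kept a measurable level of Slc5a1. Slc5a2 made up 63.8% and 60.1% of the 7-member family in kidney and under 0.1% in small intestine, and Slc5a1 made up 8.59% and 7.74% in kidney and 74.7% and 81.7% in small intestine.

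Of 15 sugar carriers tested, Slc5a1 and Slc5a2 among them, 6 were called in each direction. Slc5a10, a relative that carries mannose and fructose, was at 27.9 and 34.5 in kidney and 0.0388 and 0.168 in small intestine. The glucose sensors Slc5a4a and Slc5a4b were at no more than 0.342 in kidney and between 23.3 and 36.5 in small intestine. Of the facilitated carriers, Slc2a7 was at 0.0705 and 0.0416 against 10.8 and 11.8, and the low-level Slc2a1 and Slc2a4 were higher in kidney, with log2 differences of 1.55 and 1.64. Slc2a2, the basolateral exit route GLUT2, was at 23.6 and 22.0 in kidney and 45.3 and 55.3 in small intestine, a difference of -1.10 that was not called without kidney replicate 2 (-1.05), small intestine replicate 1 (-1.24) or replicate 2 (-0.96). Slc2a5, the fructose carrier GLUT5, was not called, at 15.1 and 18.8 against 28.5 and 26.1.

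**Figure D3:**
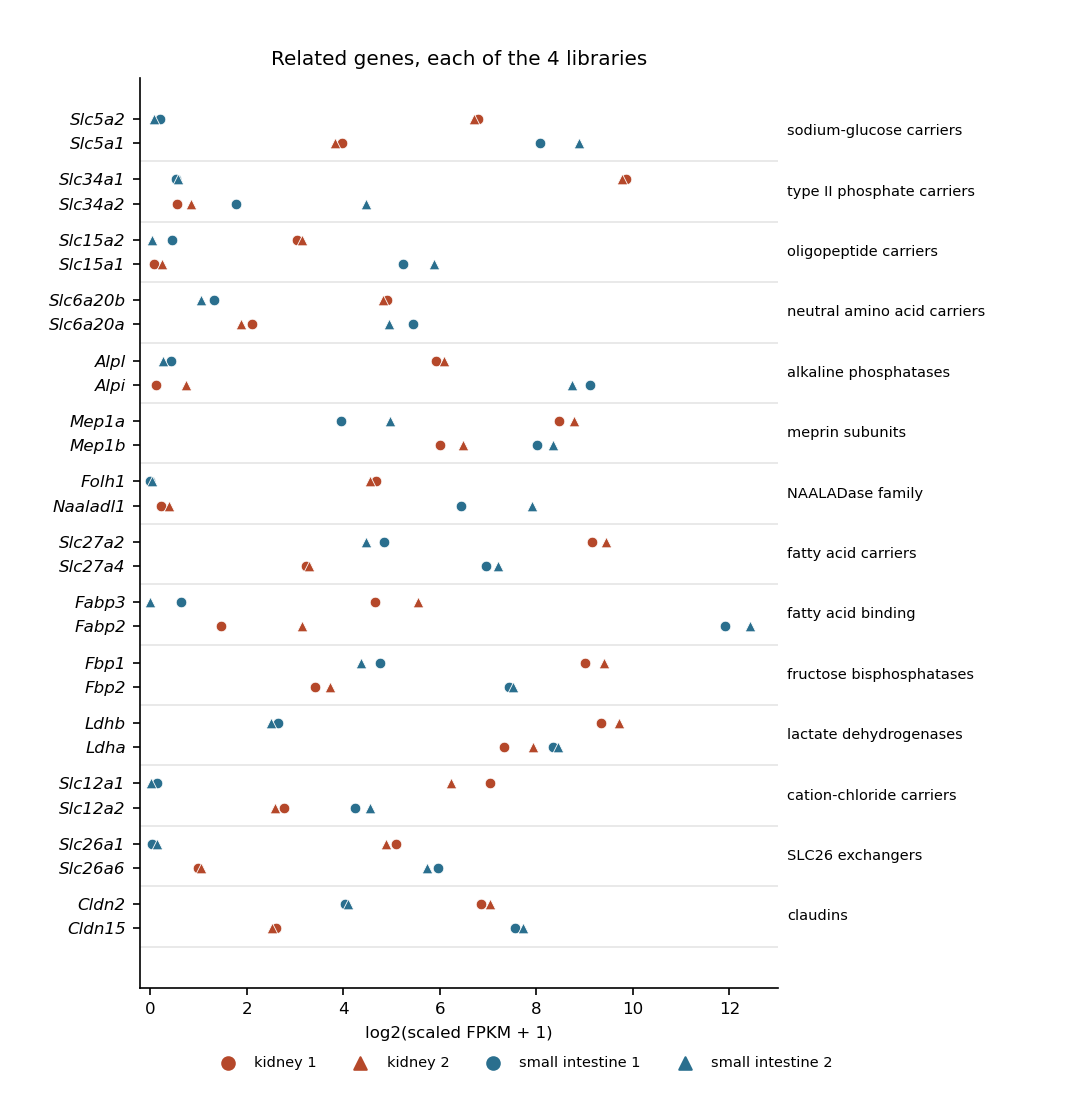
Level of 14 pairs of related genes in each of the 4 libraries, as log2(scaled FPKM + 1), with kidney in red and small intestine in blue, circles for replicate 1 and triangles for replicate 2. In each pair the upper gene is the one higher in kidney, and the lower gene is higher in small intestine, except that Ldha was not called and that the replicates of Slc34a2 lie far apart.

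Peptides and amino acids were handled by a mixture of exchanged and shared carriers. Of 28 tested genes, 12 were called higher in kidney, 6 higher in small intestine and 10 were not called. Slc15a1, the low-affinity peptide carrier PEPT1 that takes up the products of digestion, was at 0.0539 and 0.191 in kidney and 36.8 and 58.2 in small intestine. Slc15a2, the high-affinity PEPT2, was at 7.27 and 7.90 in kidney and 0.362 and 0.0216 in small intestine. PEPT2 made up 73.3% and 72.5% of the family in kidney and PEPT1 89.8% and 95.7% in small intestine.

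Slc6a18 led the sodium-dependent neutral amino acid carriers in kidney, with 52.3% and 47.6% of their sum, and Slc6a19 led in small intestine, with 62.5% and 79.9%. Slc6a19, which encodes B0AT1 and was not called, was at 75.8 and 64.8 in kidney and 73.7 and 124 in small intestine, a log2 difference of -0.44 with a 95% interval from -1.31 to 0.42, and the groups overlapped. B0AT1 needs a partner to reach the membrane, known to be collectrin in kidney. Tmem27, which encodes collectrin, was at 689 and 1179 in kidney and 0.297 and 0.619 in small intestine, a difference of 9.28 (standard error 0.35, adjusted p = 1.34e-05 by limma). Slc6a18, a paralog of Slc6a19 that encodes B0AT3, was at 119 and 86.2 in kidney and 0.395 and 0.234 in small intestine. The proline carriers encoded by Slc6a20a and Slc6a20b, whose exons share part of their sequence so that reads between them are uncertain, were split, with Slc6a20b at 29.0 and 27.3 against 1.52 and 1.08 and Slc6a20a at 3.30 and 2.68 against 42.4 and 29.9.

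The heteromeric carriers are made of a heavy and a light chain. Slc7a13, a light chain for acidic amino acids and cystine, was at 548 and 896 in kidney and 0.557 and 0.335 in small intestine, a difference of 8.93 (standard error 0.32). It made up 83.9% and 88.9% of the 9 light chains in kidney. Slc7a9, the light chain for cystine and dibasic amino acids, was not called, at 44.6 and 51.3 against 59.1 and 79.9, and neither were the basolateral light chains Slc7a7 and Slc7a8, with differences of -0.35 and -0.61. The heavy chain Slc3a1 was at 109 and 117 in kidney and 23.1 and 41.7 in small intestine, a difference of 1.83 whose call was lost without kidney replicate 1 (1.88), kidney replicate 2 (1.78) or small intestine replicate 1 (1.42). Slc38a3, a glutamine carrier, was at 8.96 and 11.1 in kidney and 0.226 and 0.181 in small intestine, and Slc6a13, a GABA and taurine carrier, at 27.3 and 33.6 against 0.126 and 0.0274. On the intestinal side, the aromatic amino acid uniporter Slc16a10 was at 4.23 and 3.67 in kidney and 16.9 and 15.8 in small intestine.

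Phosphate carriers of type II differed between the tissues in both directions. Slc34a1, the type IIa sodium-phosphate cotransporter (chr13:55398187-55415592, plus strand), was at 928 and 879 in kidney and 0.451 and 0.494 in small intestine, a 1912-fold higher level that is 9.26 on the log2 scale, with a standard error of 0.26 and an adjusted p of 1.34e-05 by limma. Slc34a3, type IIc, was at 22.5 and 24.1 in kidney and 0.0389 and 0.810 in small intestine. Slc34a2, the type IIb form of intestine, was at 0.481 and 0.789 in kidney and 2.42 and 21.3 in small intestine, where the libraries differed widely. Its difference of -2.42 (adjusted p = 0.0426 by limma) moved to -1.07 without small intestine replicate 2 and to -3.78 without replicate 1. The Slc34a2 call was lost without kidney replicate 1, at -2.29, and without kidney replicate 2, at -2.56. It was also lost with no filter on low values, with quantile normalization (-2.39) and with no trend. The type III carriers Slc20a1 and Slc20a2, which supply phosphate to most cells, were not called, at levels between 2.02 and 4.98 in all 4 libraries, although Slc20a2 was called higher in kidney with a pseudocount of 0.1 (1.15) and on recovered reads (1.16).

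Of 4 sulphate and dicarboxylate cotransporters tested, 3 were called higher in kidney and 1 higher in small intestine. Slc13a3, a dicarboxylate carrier, was at 96.3 and 106 in kidney and 0.0704 and 0.0763 in small intestine, a difference of 6.57. Slc13a1, the apical sulphate carrier, was at 28 and 28.2 in kidney and 10.8 and 7.93 in small intestine, a difference of 1.51 that was not called without small intestine replicate 2 (1.31). Slc13a2, another dicarboxylate carrier, was at 13.5 and 14.2 in kidney and 35.3 and 83.3 in small intestine, where it made up 76.5% and 91.2% of the family. Its difference of -1.90 was not called without kidney replicate 1 (-1.86), kidney replicate 2 (-1.93) or small intestine replicate 2 (-1.29), and 26.2% of its exon bases overlap another gene. Slc26a1, a sulphate exchanger of the basolateral membrane, was at 33.4 and 28.7 in kidney and 0.0227 and 0.0983 in small intestine.

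Of 43 tested genes of sodium, proton, chloride and bicarbonate transport, a list that also holds 4 potassium channels called higher in kidney, 21 were called higher in kidney, 10 higher in small intestine and 12 were not called, with a median of 1.16. Slc12a1, the furosemide-sensitive cotransporter of the thick ascending limb, was at 131 and 74.6 in kidney and 0.111 and 0.0138 in small intestine. Slc12a3, the thiazide-sensitive cotransporter of the distal tubule, was at 79.0 and 23.8 in kidney, so that its replicates differed widely, and at 0.0413 and 0.0215 in small intestine. Slc12a2, the paralog that loads crypt cells with chloride, was at 5.87 and 4.98 in kidney and 18 and 22.5 in small intestine, a difference of -1.72 (standard error 0.24). Slc12a1 led the family in kidney with 57.2% and 67.0%, and Slc12a2 led it in small intestine with 54.2% and 55.9%.

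Chloride and cation channels also divided by tissue. Cftr, the chloride channel of secreting crypts, was at 0.655 and 0.560 in kidney and 6.09 and 6.93 in small intestine, and Clcn2 at 2.41 and 1.92 against 13.8 and 16.6. Scnn1a, Scnn1b and Scnn1g, the subunits of the epithelial sodium channel, were all called higher in kidney, with Scnn1a at 21.3 and 15.5 against 2.29 and 2.27. Kcnj1, Kcnj15 and Kcnj16, inward rectifier potassium channels, were at 42.9 to 136 in kidney and at no more than 0.308 in small intestine. Fxyd2, the regulatory subunit of the sodium pump, was at 243 and 390 in kidney and 0.367 and 0.358 in small intestine, a difference of 7.82 (standard error 0.30).

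The SLC26 anion exchangers had a different leading member in each tissue. Slc26a3, the apical chloride-bicarbonate exchanger of gut, was at 0.0138 and 0.0122 in kidney, with 2 reads and 1 read, and at 21.9 and 24.1 in small intestine. Slc26a6, which also carries oxalate, was at 0.997 and 1.08 in kidney and 61.5 and 52.2 in small intestine, a 54.8-fold higher level. Slc26a4, pendrin of intercalated cells, was at 19.4 and 15.3 in kidney and 0.0295 and 0.128 in small intestine. For bicarbonate exit, Slc4a4, the cotransporter NBCe1, was at 65.6 and 53.3 in kidney and 4.68 and 8.21 in small intestine, a difference of 3.06 (standard error 0.32). Slc9a3, the apical sodium-proton exchanger NHE3 that works in both tissues, was not called, at 16.4 and 10.5 against 20.5 and 20.4.

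**Figure D4:**
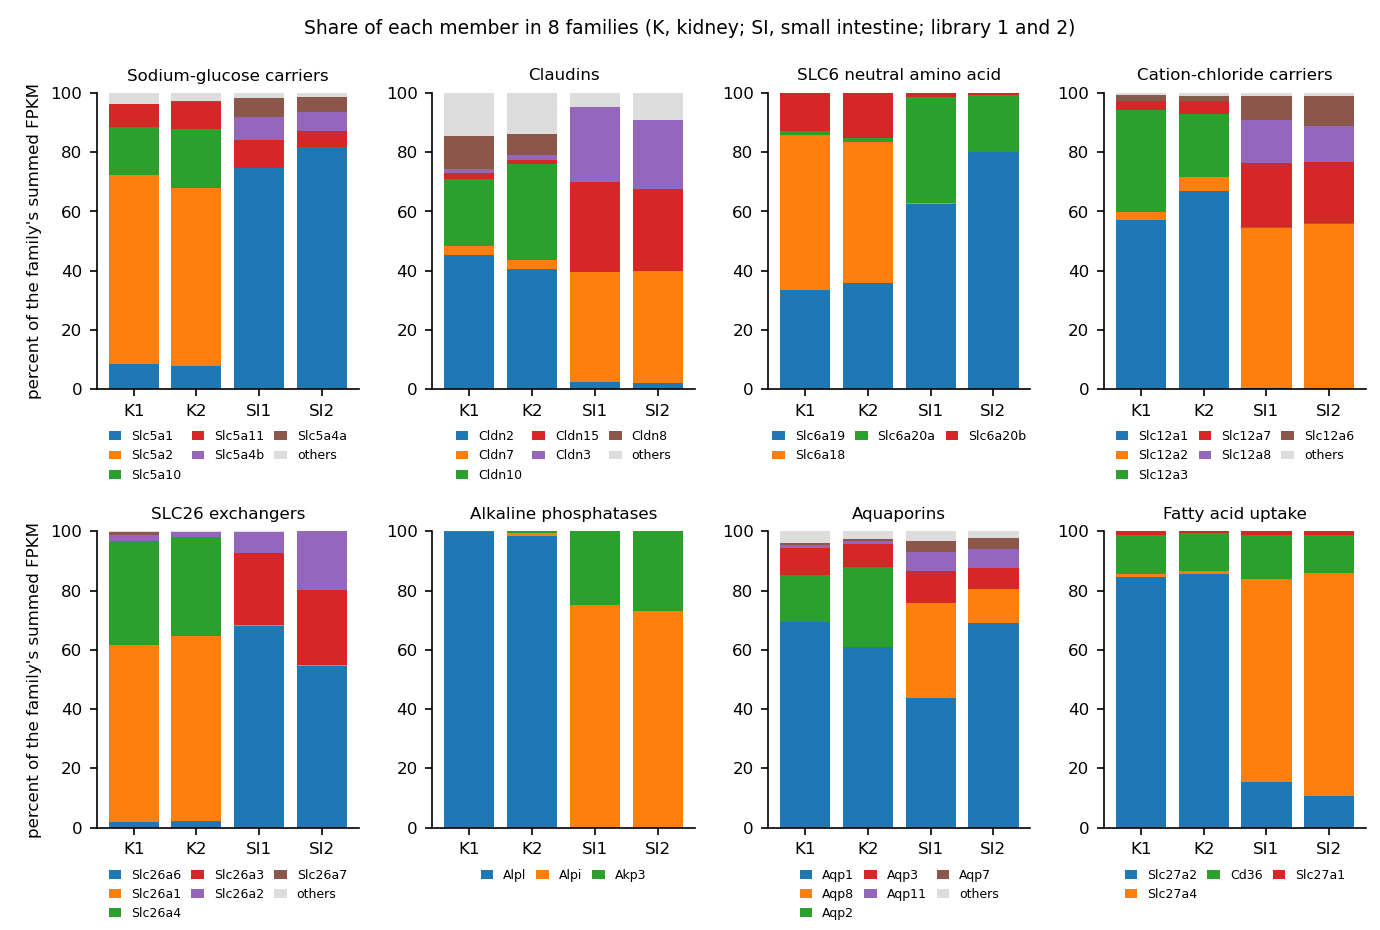
Share of each member in the summed scaled FPKM of 8 families, in percent, with 1 bar per library, the 6 members with the highest share in any library in colour and the rest in grey. Slc5a2, Alpl and Slc26a1 lead their families in the kidney bars, and Slc5a1, Alpi and Slc26a6 in the small intestine bars.

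The V-ATPase, the proton pump that acidifies urine, is a complex with alternative subunit isoforms. Of 12 V-ATPase subunits tested, 9 were called higher in kidney, 1 higher in small intestine and 2 were not called. The isoforms of intercalated cells, Atp6v0a4, Atp6v0d2, Atp6v1b1 and Atp6v1g3, were at 7.03 to 32.4 in kidney. In small intestine Atp6v0a4 was at 0.0923 and 0.0640, and the other 3 had no read. The widely used paralog Atp6v0a2 was at 7.04 and 7.10 in kidney and 15.6 and 19.6 in small intestine, a difference of -1.20 that was not called without small intestine replicate 1 (-1.35) or replicate 2 (-1.04). Atp6v1b2, the widely used B subunit, was also higher in kidney, at 50.5 and 53.7 against 9.64 and 10.7.

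Carbonic anhydrases, which make protons and bicarbonate, were called higher in kidney for 6 of 10 tested. Car2, the abundant cytosolic form, was at 124 and 143 in kidney and 24.7 and 13.9 in small intestine, and the membrane forms Car12 and Car14 had differences of 3.77 and 4.52. Car13 was at 0.324 and 0.641 in kidney and 7.51 and 13.6 in small intestine, and Car9 at 2.99 and 4.24 against 23.5 and 21.7. Car4, the anchored form of the brush border, was not called, at 64.4 and 98.7 against 52.6 and 59.0.

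Of 8 genes tested for calcium transport and vitamin D, 3 were called higher in kidney and 1 higher in small intestine. Calb1, calbindin-D28k of the distal tubule, was at 71.0 and 61.8 in kidney and 0 and 0.0493 in small intestine. Trpv5, the apical channel of the same cells, was at 3.86 and 1.79 in kidney with no read in either small intestine library, and a count of 0 allows up to 3 reads. Its paralog Trpv6, known as the intestinal channel, was below the filter in both tissues, between 0.234 and 0.373, and was named after its values were seen. S100g, calbindin-D9k, was at 351 and 578 in kidney and 312 and 96.7 in small intestine, with a difference of 1.37 and a 95% interval from -0.11 to 2.85. Vdr, the vitamin D receptor, was not called, at 37.6 and 34.2 against 54.8 and 69.9, while Cyp24a1, which inactivates vitamin D, was at 10.7 and 11.3 in kidney and 0 and 0.0224 in small intestine.

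Of 29 listed organic ion and drug transporters tested, 20 were called higher in kidney and 4 higher in small intestine, with a median of 2.78. In the SLC22 family 11 of 12 genes were called higher in kidney and none in small intestine, and Slc22a4 was not called at 0.82 (95% interval 0.15 to 1.49). Slc22a12, the urate exchanger URAT1, was at 487 and 530 in kidney and 0.326 and 0.212 in small intestine, a 1888-fold higher level. Slc22a6 and Slc22a8, the basolateral anion carriers OAT1 and OAT3, had differences of 7.45 and 6.93, and Slc22a2, the cation carrier OCT2, one of 7.36. Slc47a1, which extrudes organic cations into urine, was at 155 and 141 in kidney and 11.8 and 12.4 in small intestine. Slc22a28 and Slc22a30 share sequence with close relatives, so their values are uncertain. Slc22a4 and Slc22a30 were named after their values were seen.

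Efflux pumps ran both ways. Abcb1a, P-glycoprotein, was at 0.680 and 0.481 in kidney and 12.3 and 29.6 in small intestine, a difference of -3.68 (standard error 0.39), and Abcc3 at 0.269 and 0.245 against 10.6 and 9.86. Abcg2, which exports urate and drugs, was at 44.3 and 44.9 in kidney and 16.5 and 16.4 in small intestine, a difference of 1.39 that was not called without either small intestine library, at 1.39 each, or with equal summed FPKM, at 0.98. Abcc2, the apical conjugate pump, was not called, at 28.6 and 16.6 against 26.7 and 38.8.

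Of 17 tested genes of bile acid and lipid uptake, 5 were called higher in kidney and 8 higher in small intestine. The 3 bile acid carriers among them gave 1 of the kidney calls and 2 of the small intestine calls. Npc1l1, the cholesterol carrier that ezetimibe blocks, was at 0.0393 and 0.139 in kidney and 71.3 and 109 in small intestine. Abcg5 and Abcg8, whose products form the pump that returns plant sterols to the lumen, had differences of -6.07 and -5.18. Slc27a2, a fatty acid carrier and acyl-CoA synthetase, was at 567 and 693 in kidney and 27.8 and 21.2 in small intestine, a 25.7-fold higher level, while its paralog Slc27a4 was at 8.42 and 8.85 against 124 and 147. Fabp2 and Fabp1, intestinal and liver fatty acid binding proteins, were at 1.77 and 7.80 and at 2.62 and 11.6 in kidney and at 3842 and 5528 and at 3977 and 2382 in small intestine. Fabp3 was at 24.4 and 45.6 in kidney and 0.558 and 0 in small intestine, with 5 reads and none, though its exons share sequence with other genes.

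Bile acid carriers were called in both directions. Slc10a2, the apical sodium-bile acid carrier of terminal ileum that is also found in proximal tubule, was at 15.9 and 12.7 in kidney and 0.265 and 1.46 in small intestine, a difference of 3.11 (standard error 0.34, adjusted p = 0.000507 by limma). The basolateral exit carriers Slc51a and Slc51b were higher in small intestine, with Slc51a at 33.4 and 43.8 against 78.5 and 116 and Slc51b at 6.19 and 11.1 against 22.5 and 36.9. The Slc51a call, at -1.30, was lost with any library left out, with values between -1.57 and -1.02, and the Slc51b call, at -1.68, was lost without kidney replicate 1 (-1.31) or small intestine replicate 2 (-1.34). Fabp6, the ileal bile acid binding protein, was listed at 0 in both kidney libraries and at 0.192 and 22.9 in small intestine, which kept it below the filter, and it was named after its values were seen.

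Of 29 tested transport genes for vitamins, nucleosides, metals and monocarboxylates, 10 were called higher in kidney and 11 higher in small intestine. The 7 monocarboxylate carriers among them gave 4 of the kidney calls and 2 of the small intestine calls. Slc39a4, the zinc importer ZIP4, was at 0.296 and 0.593 in kidney and 69.2 and 71.5 in small intestine, a 158-fold higher level that moved to 238-fold without kidney replicate 2. Slc46a1, the proton-coupled folate carrier, was at 10.3 and 13.5 in kidney and 66.8 and 43.7 in small intestine, and Heph, the ferroxidase of iron exit, at 1.21 and 0.729 against 16.1 and 23.6. Slc28a1, a concentrative nucleoside carrier, was at 4.02 and 4.26 against 39.5 and 30.2. Slc16a4 and Slc16a7, monocarboxylate carriers, were higher in kidney, with differences of 4.11 and 2.81. Slc23a1, the vitamin C carrier, was at 88.9 and 100 in kidney and 11.7 and 30.2 in small intestine, a difference of 2.26 whose call was lost without kidney replicate 1 (2.35), kidney replicate 2 (2.18) or small intestine replicate 1 (1.62).

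Of the 4 genes of the megalin and cubilin complex, which retrieves filtered protein, 2 were called higher in kidney and 2 were not called. Lrp2, megalin, the receptor that retrieves filtered protein, was at 61.6 and 35.0 in kidney and 0.0385 and 0.0429 in small intestine, and its adaptor Dab2 at 33.8 and 34.6 against 0.725 and 0.553. Of their partners in the complex, Cubn was at 13.9 and 7.92 against 4.47 and 7.66 and Amn at 47.7 and 65.2 against 42.2 and 54.3, and neither was called. Of 8 aquaporins tested, 4 were called higher in kidney, 1 higher in small intestine and 3 were not called. Aqp2, the vasopressin-regulated water channel, was at 75.3 and 161 in kidney and 0.194 and 0.0562 in small intestine. Aqp8 was at 0.472 and 0.736 in kidney and 36.9 and 12.0 in small intestine. Aqp1 was the leading aquaporin in all 4 libraries, at 331 and 362 against 50.2 and 73.0, with a difference of 2.5 that was not called without small intestine replicate 1 (2.23). Rhcg, an ammonia channel, was at 36.2 and 35.0 in kidney with no read in small intestine.

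All 13 claudins tested were called, 8 higher in kidney and 5 higher in small intestine. Claudins seal the space between cells or form pores in it. Cldn2, a pore for cations and water, was at 115 and 130 in kidney and 15.3 and 16.3 in small intestine, a 7.75-fold higher level. Cldn10, another pore, was at 57.7 and 104 against 0.177 and 0.123, and Cldn8, of the distal nephron, at 27.6 and 22.7 against 0.195 and 0.236. Cldn15, the sodium pore of intestine, was at 5.08 and 4.79 in kidney and 188 and 210 in small intestine, a 40.2-fold higher level and a difference of -5.07 (standard error 0.26). Cldn7 and Cldn3 had differences of -4.79 and -4.88. Cldn7 led in small intestine with 36.9% and 37.9% of the family, and Cldn2 in kidney with 45.2% and 40.7%. Cldn4 was at 5.51 and 6.2 against 15.8 and 53.7, and its difference of -2.15 moved to -3.00 without small intestine replicate 1 and was not called without kidney replicate 1 (-2.07), kidney replicate 2 (-2.22) or small intestine replicate 2 (-1.29), nor with no filter on low values.

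Of 25 tested isoenzymes and cellular retinol binding proteins, 8 were called higher in kidney and 9 higher in small intestine. The 3 retinol binding proteins gave 2 of the small intestine calls and none of the kidney calls. Fbp1 and Fbp2 encode fructose bisphosphatases, which act in gluconeogenesis. Fbp1 was at 516 and 678 in kidney and 26.3 and 19.5 in small intestine, and Fbp2 at 9.74 and 12.3 against 172 and 181, so that each made up at least 86.7% of the family in its own tissue. Ldhb, the lactate dehydrogenase subunit of oxidative tissue, was at 651 and 840 in kidney and 5.26 and 4.71 in small intestine, a 149-fold higher level. Ldha, the other subunit, was not called, at 160 and 242 against 324 and 348, and made up 98.3% and 98.6% of the family in small intestine. Lactate dehydrogenase exons share sequence with other genes, so their values carry that uncertainty.

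Ckmt1, mitochondrial creatine kinase, was at 15 and 17.6 in kidney and 492 and 526 in small intestine. Triglyceride synthesis changed paralog too. Mogat1 was at 46.8 and 74.1 in kidney and 0.0589 and 0.102 in small intestine, while Mogat2, the intestinal monoacylglycerol acyltransferase, was at 10.1 and 16.1 against 195 and 224. Dgat1 was at 8.10 and 10.6 against 273 and 288, and Dgat2 was not called, at 36.1 and 45.1 against 56.0 and 75.5. G6pc, the last enzyme of glucose output, was at 239 and 266 in kidney and 28.1 and 37.8 in small intestine.

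The transcription factors that mark the epithelia separated in both directions, with 12 of 24 called higher in kidney, 10 higher in small intestine and 2 not called. Cdx1 and Cdx2, homeobox factors of gut identity, were at 47.8 and 56.1 and at 20.5 and 24.7 in small intestine, with no more than 2 reads in a kidney library. Gata4, Gata5 and Gata6 had differences of -4.51, -3.59 and -4.28, and Isx, a homeobox repressor of vitamin A uptake, one of -5.41. Hnf4g was at 1.55 and 0.826 in kidney and 37.6 and 66.8 in small intestine, whereas its paralog Hnf4a was not called, at 88.2 and 83.5 against 50.4 and 71.4. Pax2, Pax8, Lhx1, Irx1, Irx3 and Emx1, factors of kidney development, were called higher in kidney, with differences between 1.66 and 3.73. Klf15 was at 43.1 and 37.0 in kidney and 2.30 and 4.22 in small intestine, and Klf4 at 2.42 and 3.46 against 47.5 and 80.0.

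Several steps used the same genes at levels that the test did not separate. Khk, which starts fructose breakdown, was at 253 and 387 in kidney and 248 and 218 in small intestine. Dpep1, a dipeptidase, was at 47.3 and 57.1 against 73.4 and 105. A p that misses the threshold does not show equal levels, and the plot of genes not called gives the 95% interval of each difference. S100g (1.34) was called higher in kidney with all 8 libraries in the fit, and Slc7a8 (-1.01) higher in small intestine with equal summed FPKM. With the values as deposited, Dgat2 (-1.02), Dpep1 (-1.09), Ldha (-1.12), Slc2a5 (-1.0) and Vdr (-1.12) were called higher in small intestine.

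**Figure D5:**
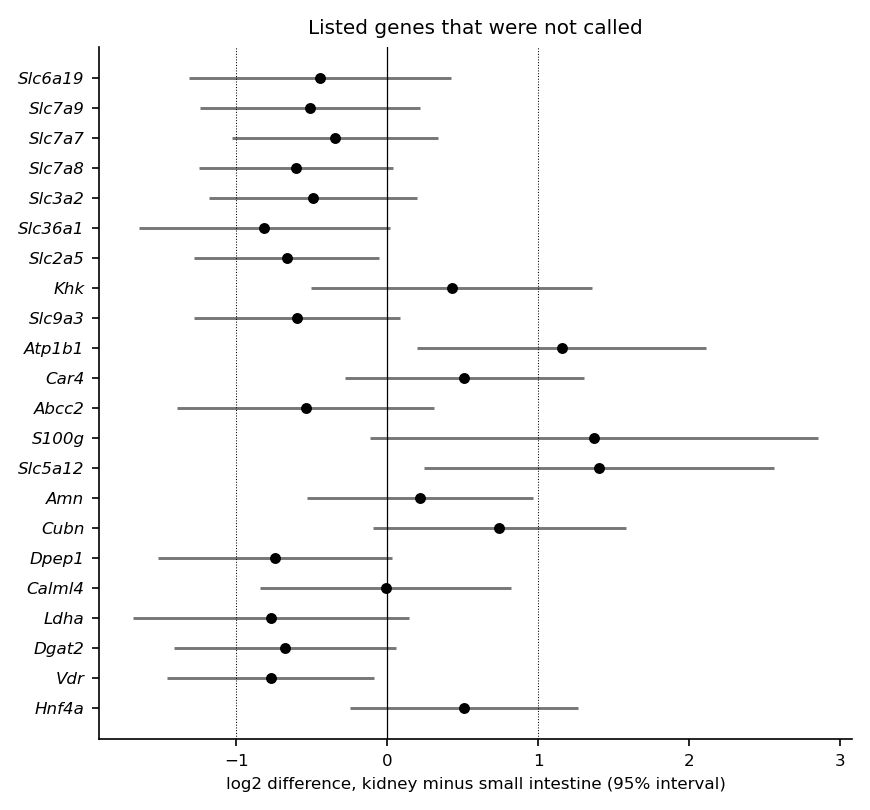
Log2 difference, kidney minus small intestine, of 22 listed genes that were not called, with 95% intervals from limma and dotted lines at the threshold of 1 on either side. Calml4 sits at -0.01 and Slc6a19 at -0.44, and S100g and Slc5a12 have the widest intervals.

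Among all genes, those with the largest kidney differences were Kap, Miox, Tmem27, Slc34a1, Akr1c21, Umod, Slc7a13 and Acsm2. Kap, an androgen-regulated protein of the proximal tubule, was at 14262 and 42537 in kidney and 17.3 and 12.5 in small intestine. Miox, which starts the breakdown of myo-inositol, was at 924 and 1578 against 0.445 and 0.579, and Umod, uromodulin of the thick ascending limb, at 708 and 744 against 0.664 and 0.259. The largest small intestine differences were those of Fabp2, Rbp2 and 6 defensin genes and relatives (Gm7849, Gm7861, Defa24, Defa-rs7, AY761184 and Defa23). Rbp2, a cellular retinol binding protein, was at 1.55 and 6.53 in kidney and 4730 and 2867 in small intestine. The defensin genes are near-identical copies, and all 31-base words of Gm7849, Gm7861 and Defa23 occur in other genes too, so their separate values are uncertain.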

How the data were processed

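Tissue pieces were washed, ground in liquid nitrogen and extracted with Trizol, and libraries were made from polyadenylated RNA. The authors aligned reads with STAR 2.5.3a to the mouse genome (GRCm38) and deposited 1 table of FPKM values made with DESeq2. The counting program and the use of strand and multimapping reads are not given in the sources used here. All members and gene lists were chosen with earlier results of these data known. The 4 columns were divided by median-of-ratios factors from 17354 genes above 0 in all 4. Tests covered genes that reached a scaled FPKM of 1 in 2 or more of the columns and were run on log2(FPKM + 1) with limma 3.58.1 in R 4.3.3 (trend on, 2 residual degrees of freedom) and Benjamini-Hochberg adjustment over 13039 genes. Intervals are 95% and were not adjusted. Whole reads were recovered from low values (within 0.02 of a whole number for values under 50 reads), and floors in reads cover counting error only. Genes named led a family in either tissue, or were called with the largest difference in their list (up to 6 per list and direction), or belonged to a named pair. Of all genes, the 8 with the largest difference in each direction were added, among those called, with libraries that did not overlap and a mean FPKM of at least 10 in the higher tissue. A further 32 genes were named after their values were seen, to complete a pair or complex, as were Cela1, Trpv6, Slc22a4, Slc22a30 and Fabp6. On simulated data for this comparison, 32% of 200 genes changed 2-fold and 100% of 200 changed 4-fold were recovered, with 10 and 18 unchanged genes called beside 64 and 200 recovered. The simulation used the same spread setting for all genes and no other difference in mean level between the tissues. The data differ in both respects, so these rates may not hold for them. Replicate numbers are not stated to mark a mouse, and p-values measure the spread between these libraries. Gene coordinates are from GENCODE mouse release 21. Alternatives covered scaling, pseudocount, filter, trend, other libraries in the fit, the replicate block and each library left out. Python 3.11.15 was used for the rest. Some genes counted in the lists and families, and a planned promoter motif, are not reported here by name.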

Additional observations from a re-analysis of the deposited data

How the results depend on the processing

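With 2 libraries a tissue, precision is limited by replicate number and, for low genes, by depth. Without 1 library, kidney calls ranged from 1529 to 2409, small intestine calls from 1901 to 2200, listed kidney calls from 125 to 136, listed small intestine calls from 89 to 99, and families with different leaders from 40 to 43. With a filter at FPKM 5, 1436 genes were called higher in small intestine, since fewer genes were tested. Within 100 bases upstream of the start, 3.96% of promoters held the CDX-type motif and 1.43% the HNF4-type, since the window is shorter. The deviations of same-numbered kidney and small intestine libraries had a correlation of -0.244 across genes. With 2 libraries a tissue, this value cannot show whether a replicate number marks a mouse. A replicate block gave 2265 and 2363 calls, or 2293 and 2378 with crossed numbers, chosen after seeing the data. The test on recovered reads gave 2675 and 2801. Of 3541 values of 255 named genes under alternatives, 3375 kept direction and side of the threshold, 115 lost the call, 41 gained it and 10 changed sign, none of these among called genes. Counted by gene, 37 of the 225 named genes that were called lost the call under at least 1 alternative. The uncalled genes that changed sign were Amn (-0.13 as deposited, -0.20 with equal sums, -0.0045 to 0.44 with a library left out), Slc20a1 (-0.16 as deposited, -0.20 with equal sums), Calml4 (0.040 with quantile normalization, -0.40 to 0.38 with a library left out) and Abca1 (-1.15 to 0.32 with a library left out). Slc20a1 was at -0.21 without kidney replicate 1. The cause was not tested.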

Other observations

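Some listed genes differed between the small intestine libraries, and they were picked after their values were seen. Slc5a8, a monocarboxylate carrier, was at 0.413 and 7.23 in replicates 1 and 2, Slc26a2 at 6.58 and 18.8, and Pck1, a gluconeogenic enzyme, at 35.9 and 109, while S100g, a calcium-binding protein, was at 312 and 96.7. Slc34a2 and Fabp6 were also higher in replicate 2. The position of each piece along the intestine was not analysed here.

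Among 144 genes abundant in small intestine, with a mean of at least 100 and a log2 difference over 5, the median level in kidney was 0.0662% of that in small intestine in replicate 1 and 0.248% in replicate 2, and 129 of them were higher in kidney replicate 2. Among 64 genes abundant in kidney by the same rule, the median in small intestine was 0.138% and 0.130%. Low kidney levels of intestinal genes such as Alpi, Sis and Fabp2 carry this difference between libraries. Its cause was not tested. Slc34a1 and Slc22a12 are among the 64 genes abundant in kidney, so the folds given for them rest on trace levels in small intestine and are uncertain.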
